A study of Mus musculus with 4 samples.

Results

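Glycosyltransferases build the sugar chains of mucins, membrane glycoproteins and glycolipids in the Golgi, each adding a given sugar to a given acceptor. On mucins, the GALNT enzymes attach the starting N-acetylgalactosamine (GalNAc) to serine or threonine, core enzymes build on it, galactose and N-acetylglucosamine (GlcNAc) transferases lengthen the chain, and fucosyl- and sialyltransferases cap it. In the colon these O-glycans make up most of the mass of the mucus barrier and are both food and attachment sites for bacteria.

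The genes described here are those whose mouse symbol starts with Galnt, B3gnt, B4galt, B3galt, B4galnt, Gcnt, Fut and a digit, St3gal, St6gal, St8sia or C1galt, with at least 10 estimated counts summed over all libraries. That rule found 70 of the 18872 genes listed in the files. A further 8 symbols were listed with fewer counts and are not members: B3galt1, Fut7, Galnt14, Galntl5, Gcnt7, St6galnac3, St6galnac5 and St8sia2. B3galt2, with 10 counts, lay just inside the limit, and B3galt1, Fut7 and St6galnac3, with 7 counts each, just outside.

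RNA of primary colon epithelial cells was sequenced from 2 groups of mice. Mice of genotype EZH2-IEC-/- (knockout, 2 libraries) lacked Ezh2 in the epithelium, going by the study's title, and wild-type mice (2 libraries) served as controls. Ezh2 is the Polycomb enzyme that methylates histone H3 and keeps genes silent. All had been given 2% dextran sulfate sodium (DSS), which injures the colon lining, for 3 days. The labels give no Cre driver, age or strain, and no mice without DSS were analysed here, so each difference is one between genotypes under DSS. Nor do they tie each library to its own animal or pool, so the p-values take in only how far the 2 libraries of a group spread, and that spread may be technical.

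The libraries held 5037367 to 5446998 estimated counts. Epithelial markers were abundant in every library, with summed values of 10378 and 10745 FPKM (fragments scaled to transcript length and library total) in knockout and 8921 and 9280 FPKM in wild type over 10 genes. Most of that sum was Krt8 and Krt19. Of the 10 genes 7 rose and 2 fell. Those that fell were Epcam (log2 fold change -0.27, adjusted p = 0.0182, edgeR) and Cdh1 (-0.60, adjusted p = 0.000148). Ezh2 itself had 86 and 83 counts in knockout and 105 and 102 in wild type (log2 fold change -0.27 ± 0.17, adjusted p = 0.217, edgeR). The labels do not say which exons were removed, so this count over the whole gene leaves the loss of Ezh2 unverified. Markers of other cell types differed between the groups as well. Of 9 absorptive colonocyte markers 8 fell and 1 rose, with sums of 1207 and 1376 FPKM in knockout and 4286 and 4345 FPKM in wild type. Of 8 stromal and muscle markers 7 fell, with sums of 1040 and 1334 FPKM in knockout and 2309 and 2493 FPKM in wild type. Of 12 leukocyte markers 8 rose and 1 fell, with sums of 488 and 559 FPKM in knockout and 319 and 328 FPKM in wild type. Of 10 goblet cell markers 5 rose and 2 fell, with sums of 7757 and 8433 FPKM in knockout and 8306 and 8923 FPKM in wild type. Tuft cell markers were low, with sums of 7.2 to 13.1 FPKM in a library, and of 5 tested 3 fell and 1 rose. Endothelial markers were low as well, at 9.6 to 17.4 FPKM, and 3 of 4 fell. Among 6 enteroendocrine markers 1 rose and 2 fell. Of all 65 listed markers only the tuft cell gene Alox5 was at 0 in a library. In such bulk samples fewer cells of a type and less RNA per cell cannot be told apart, and the part of these shifts in the results below was not tested.

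The glycosyltransferase genes moved in both directions. Of the 70 members, 62 passed the filter on low counts and were tested, of which 21 rose, 16 fell and 25 did not pass the threshold (adjusted p under 0.05, edgeR's quasi-likelihood test, Benjamini-Hochberg adjustment over all 13608 genes tested). That is 59.7% of the tested members called, against 43.7% of all genes tested. Over all genes 23.0% were called higher and 20.8% lower. The median log2 fold change (knockout minus wild type, as everywhere below) was 0.0 for the members and -0.002 for all genes. A called log2 change of at least 1, or 2-fold, was seen in 13 members, 7 higher and 6 lower, which is 21% of those tested against 14.9% of all genes. Of these 13, 7 averaged under 3 FPKM and 6 at least 10 FPKM. The 8 members that were not tested had too few counts: B3galt2, B3gnt6, Fut1, Galnt9, Galnt13, Galnt16, St8sia3 and St8sia6.

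The split between directions leaned on the scaling. Scaling to library totals alone moved the median of all genes to -0.103, with 42.4% of called genes higher against 52.5% in the reported fit, and gave 16 members higher and 18 lower. Fits on FPKM gave 15 higher and 17 to 19 lower. The FPKM and their sums given below are scaled to library totals. They place knockout lower relative to wild type than the scaling behind the fold changes does. Of the 37 called members, 26 were called under all of the 14 alternatives that tested them, 13 higher and 13 lower. The same was not counted over all called genes, so this is no result particular to the members.

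**Figure D1:**
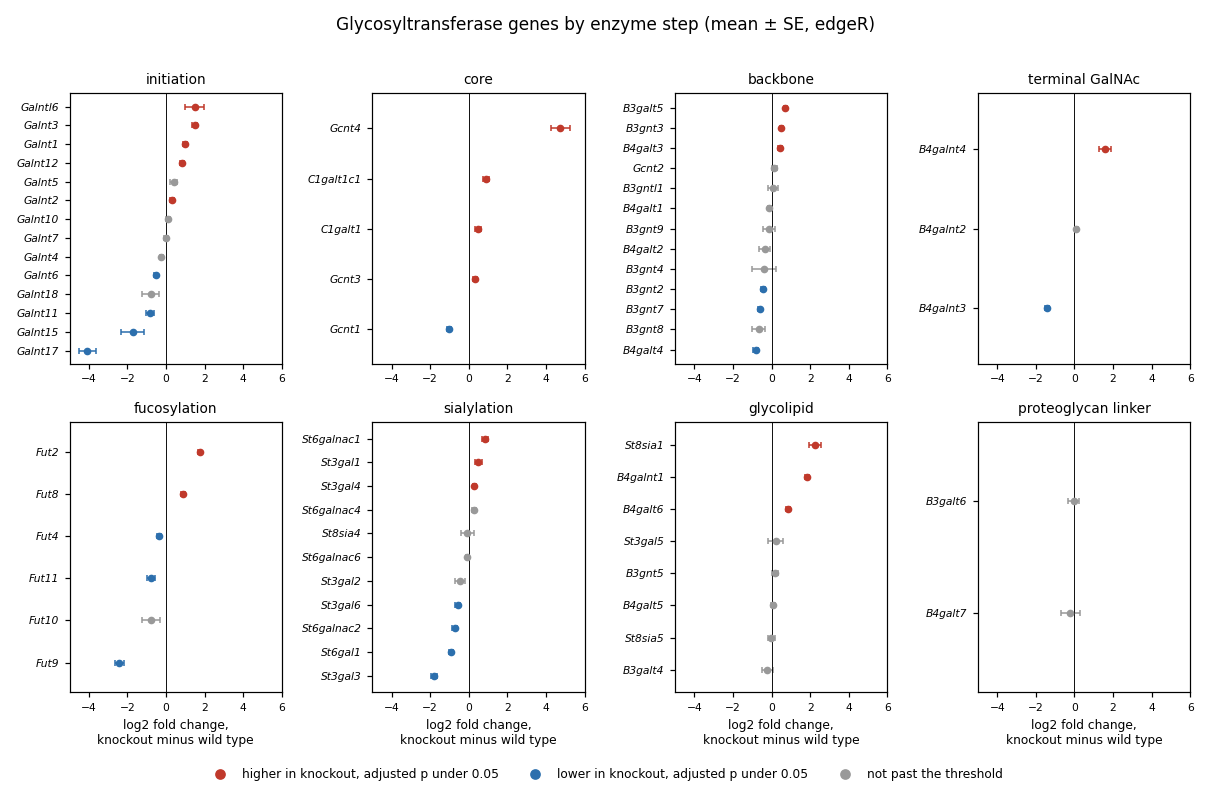
Log2 fold change (knockout minus wild type, x axis) of the 62 tested genes, a panel for each enzyme step. Points are edgeR estimates with their standard error, red where higher and blue where lower at an adjusted p under 0.05, and grey otherwise; most steps hold red and blue points, and the extremes are Gcnt4 at 4.75 and Galnt17 at -4.08.

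The initiating step changed in composition. Of 17 GALNT genes 14 were tested, 5 rose and 4 fell, and the summed level was 257 and 238 FPKM in knockout libraries against 227 and 212 FPKM in wild-type libraries. Galnt3 (Entrez gene 14425), whose enzyme is known for glycosylating the phosphate hormone FGF23, had 35.9 and 28.0 FPKM in knockout and 12.8 and 11.8 FPKM in wild type. Both knockout libraries lay above both wild-type libraries, with a log2 fold change of 1.48 ± 0.13 (SE, adjusted p = 3.98e-05). Galnt1 (14423), a broadly expressed initiator, had 35.6 and 33.6 FPKM in knockout and 19.8 and 17.8 FPKM in wild type (0.98 ± 0.10, adjusted p = 8e-05). Galnt12 (230145), expressed in the colon of humans as well, had 48.8 and 45.9 FPKM in knockout and 29.97 and 28.1 FPKM in wild type (0.81 ± 0.10, adjusted p = 0.000204). With these rises Galnt12 held 19.0% and 19.2% of the step's summed FPKM in knockout and 13.2% and 13.3% in wild type. Galnt3 held 14.0% and 11.8% in knockout and 5.66% and 5.59% in wild type.

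Other initiators were lower. Galnt6 (207839) had 20.9 and 21.6 FPKM in knockout and 33.3 and 33.1 FPKM in wild type, a log2 fold change of -0.54 (adjusted p = 0.00109). Galnt17 (212996) had 2 and 3 counts in knockout against 43 and 47 in wild type, or 0.09 and 0.13 FPKM against 2.02 and 2.12 FPKM. The ratio of summed counts, scaled to library totals, was 19.0 times higher in wild type (95% exact Clopper-Pearson interval 7.85 to 59.9, counting error only), and the fitted log2 fold change was -4.08 ± 0.43 (adjusted p = 9.52e-05). Its libraries did not overlap, but the level was low in both groups. Galnt7 and Galnt10, which prefer peptides that already carry GalNAc, were among the genes that did not pass. Galnt7 (108150) had 33.6 and 31.6 FPKM in knockout and 37.8 and 31.3 FPKM in wild type (0.02 ± 0.11, adjusted p = 0.903), with overlapping groups, and Galnt10 had 0.10 (adjusted p = 0.406). Galnt4, of the same preference, had -0.24 (adjusted p = 0.0588) and passed under 8 alternatives, among them library totals alone (-0.34, adjusted p = 0.0145) and the fit without knockout replicate 1 (-0.30).

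The smaller calls of this step were less steady. Galnt2 rose by 0.32 (adjusted p = 0.0289), but not without knockout replicate 1 (0.27, adjusted p = 0.15), wild-type replicate 1 (0.33, adjusted p = 0.119) or wild-type replicate 2 (0.30, adjusted p = 0.16), nor in DESeq2 (adjusted p = 0.167) or scaled to library totals (adjusted p = 0.106). Galnt11 fell by 0.84 (adjusted p = 0.0124), but not without wild-type replicate 1 (-0.73, adjusted p = 0.0742). Galnt15, at 2 and 5 counts in knockout and 10 and 14 in wild type, fell by 1.72 (adjusted p = 0.0412) and lost the call when any library was left out (adjusted p = 0.0735 to 0.305). Galntl6, at 13.9 and 24.8 counts in knockout and 5.06 and 9.08 in wild type, rose by 1.48 (adjusted p = 0.0371). The call was lost without knockout replicate 2 (1.03, adjusted p = 0.333), wild-type replicate 1 (1.14, adjusted p = 0.185) or wild-type replicate 2 (1.93, adjusted p = 0.0569). Galnt5 did not pass (0.41, adjusted p = 0.0897) but was called without knockout replicate 2 (0.56, adjusted p = 0.0385) and in 1 further alternative. Galnt18 did not pass (-0.79, adjusted p = 0.171). Galnt9, Galnt13 and Galnt16 had 2 to 11 counts in every library.

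**Figure D2:**
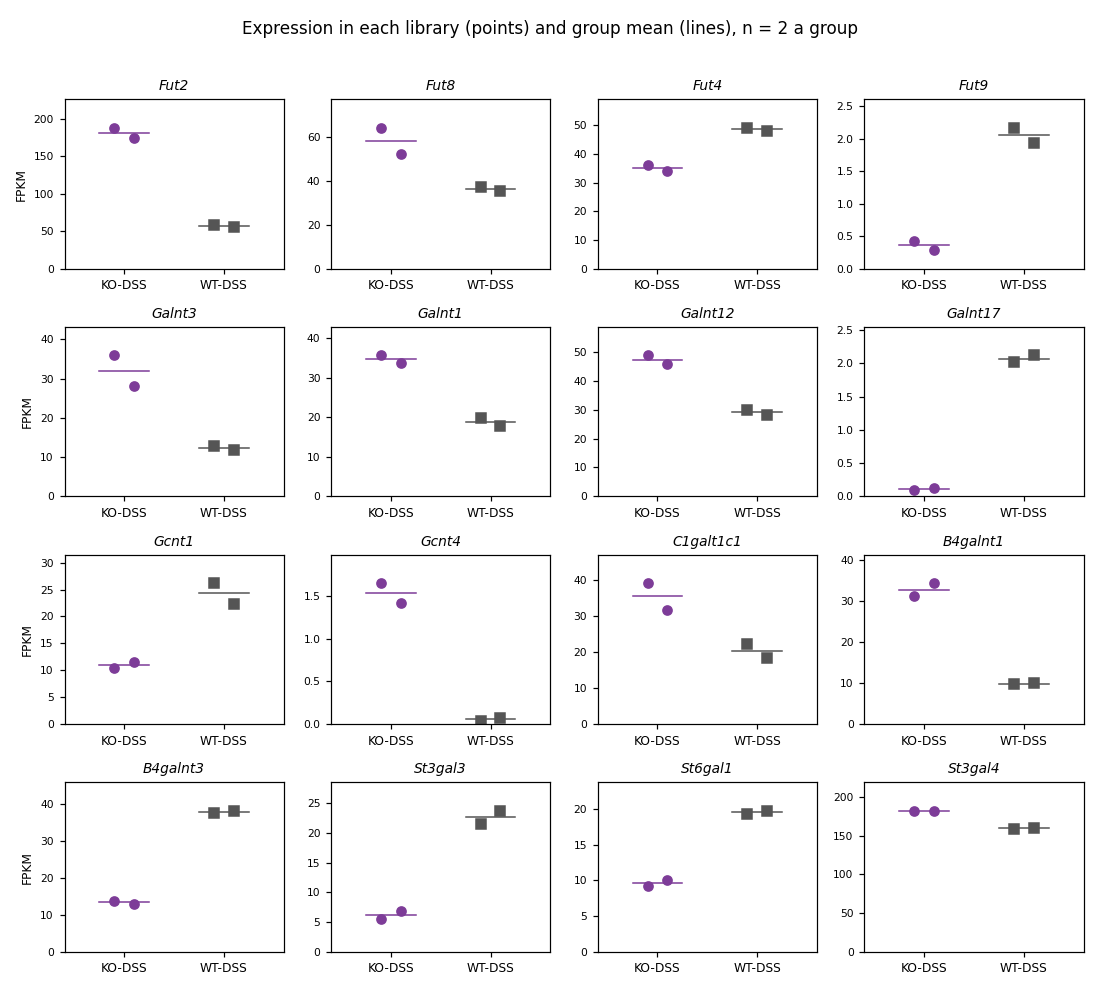
FPKM of 16 genes in each library (points, y axis from 0) and the mean of each group (lines), n = 2 libraries a group, knockout left of wild type. All 16 genes were picked from the called members, a choice that favours panels with separated groups. St3gal4 lies at 181 and 182 FPKM in knockout and 159 and 160 FPKM in wild type.

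At the core step, the genes of core 1 were called higher, C1galt1 less steadily than C1galt1c1, and the branching genes moved apart. Of 6 members 5 were tested, and 4 rose and 1 fell. C1galt1 (94192), the core 1 galactosyltransferase, had 36.6 and 34.1 FPKM in knockout and 31.5 and 22.8 FPKM in wild type (0.48 ± 0.14, adjusted p = 0.0242). The wild-type libraries stood apart here, and the call was lost without wild-type replicate 2 (0.27) or knockout replicate 1 (0.43). It was also lost scaled to library totals (0.38, adjusted p = 0.0601) and in the limma fits on FPKM (adjusted p = 0.0888 to 0.105). C1galt1c1 (59048), or Cosmc, the chaperone that C1galt1 needs to fold, had 39.2 and 31.7 FPKM in knockout and 22.1 and 18.2 FPKM in wild type. It rose by 0.91 ± 0.15 (adjusted p = 0.00125), a call held under every alternative run.

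The 3 core 2 branching genes differed. Gcnt1 (14537), the leukocyte-type core 2 enzyme, had 10.4 and 11.5 FPKM in knockout and 26.2 and 22.3 FPKM in wild type, and fell by 1.04 ± 0.11 on the log2 scale (adjusted p = 0.000118). It is also used by leukocytes, of whose 12 markers 8 rose and 1 fell, and their part in its level was not tested. Gcnt3 (72077), the mucin-type enzyme that makes core 2 and core 4, had 23.2 and 23.7 FPKM in knockout and 19.3 and 21.2 FPKM in wild type (0.31 ± 0.10, adjusted p = 0.0266). That call was lost without wild-type replicate 1 (0.23) or knockout replicate 2 (0.30), in DESeq2 (adjusted p = 0.0903) and scaled to library totals (0.21, adjusted p = 0.103). The limma fits on FPKM lost it too (adjusted p = 0.142 to 0.147). Within the step's summed FPKM, Gcnt1 held 9.39% and 11.2% in knockout and 26.2% in each wild-type library, and Gcnt3 held 20.8% and 23.1% in knockout and 19.3% and 24.9% in wild type.

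Gcnt4 (218476), a further core 2 gene, was nearly silent in wild type, with 1 and 2 counts, and had 46 and 40 counts in knockout. The ratio of summed counts was 27.2 (95% exact Clopper-Pearson interval 8.99 to 134), and the log2 fold change was 4.75 ± 0.48 (adjusted p = 8.47e-05). This was the largest change among the tested members, at a level of 1.65 and 1.42 FPKM in knockout and 0.04 and 0.07 FPKM in wild type. B3gnt6 (272411), the core 3 enzyme of colonic mucin, was too low to be tested, with 3 and 2 counts in knockout and 9 and 9 in wild type. Wild type held 3.80 times its summed count in knockout (95% exact Clopper-Pearson interval 1.36 to 13.1), and it reached 0.75 FPKM at most. The promoter of Gcnt4 is shown because this gene rose most. RefSeq (GRCm38.p6) gives 2 starts. The 250 bases before the one upstream hold matches to 2 patterns, in capitals, that do not overlap. These are STAT (TTCCNGGAA, first base at -170) and AP-1 (TGANTCA, here TGAATCA, at -123):
Gcnt4, chr13:96924094-96924343, plus strand: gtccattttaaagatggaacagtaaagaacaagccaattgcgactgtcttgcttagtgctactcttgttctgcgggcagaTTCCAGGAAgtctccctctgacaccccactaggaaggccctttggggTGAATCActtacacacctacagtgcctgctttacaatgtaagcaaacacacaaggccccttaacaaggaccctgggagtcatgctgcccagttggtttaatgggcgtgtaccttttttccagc
The window before the other start held none of the 4 motifs searched.

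Fucosylation was the step whose summed level differed most, at 292 and 264 FPKM in knockout and 153 and 146 FPKM in wild type. Fut2 (14344), the secretor enzyme that puts fucose on terminal galactose in the gut and makes the H antigen, had 189 and 174 FPKM in knockout and 58.7 and 55.6 FPKM in wild type. The groups lay far apart relative to their own spread, and the log2 fold change was 1.76 ± 0.08 (adjusted p = 8.56e-07), or 3.39-fold. Fut2 held 64.5% and 66.0% of the summed FPKM of the FUT genes in knockout and 38.3% and 38.0% in wild type. Its near relative Fut1, which makes the same linkage, had 3.83 and 2 counts in knockout and 7.64 and 5 in wild type and was not tested. The estimated counts of Fut2 were up to 0.41 from a whole number. Fut8 (53618), the enzyme of core fucose on N-glycans, had 64.2 and 52.1 FPKM in knockout and 37.3 and 35.2 FPKM in wild type (0.87 ± 0.11, adjusted p = 0.000321).

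Fut4 and Fut9, genes of Lewis-type fucose, were lower. Fut4 (14345), which adds fucose to GlcNAc inside the chain, had 36.0 and 34.0 FPKM in knockout and 49.2 and 48.0 FPKM in wild type (-0.37 ± 0.09, adjusted p = 0.00877). Fut9 (14348), the Lewis x enzyme, had 28 and 19 counts in knockout and 133 and 123 in wild type, or 0.43 and 0.29 FPKM against 2.17 and 1.93 FPKM. It fell by 2.42 ± 0.23 on the log2 scale (adjusted p = 6.31e-05). Fut11 fell by 0.77 (adjusted p = 0.0169), but not without knockout replicate 1 (-0.69, adjusted p = 0.0568) or wild-type replicate 1 (-0.68, adjusted p = 0.103). Fut10 did not pass (-0.77, adjusted p = 0.206). Over the step 2 of 6 tested members rose and 3 fell. The promoter of Fut4 was the single one among 50 members in the promoter table with a match to the NF-kappaB pattern (GGG, any 2 bases, then TTTCC, on either strand), in capitals here at -32:
Fut4, chr9:14752123-14752372, minus strand: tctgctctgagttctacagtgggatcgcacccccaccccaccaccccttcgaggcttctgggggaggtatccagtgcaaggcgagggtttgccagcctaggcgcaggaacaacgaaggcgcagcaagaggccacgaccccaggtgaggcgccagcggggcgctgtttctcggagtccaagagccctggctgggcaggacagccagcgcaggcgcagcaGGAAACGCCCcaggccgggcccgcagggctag
The capitals read as the reverse complement of the pattern.

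**Figure D3:**
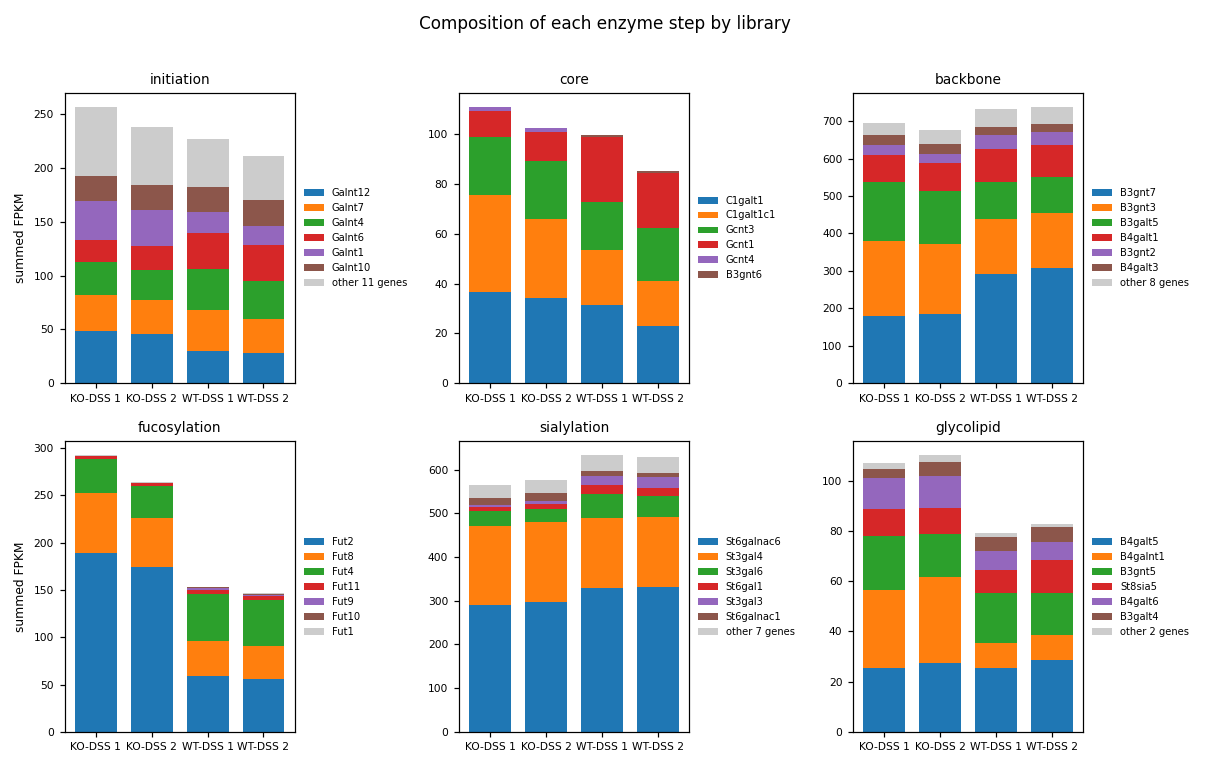
Summed FPKM (y axis, from 0) of 6 enzyme steps in each library, knockout left of wild type, with the 6 most abundant genes of a step in colour and the rest in grey. The fucosylation bars reach 292 and 264 FPKM in knockout and 153 and 146 FPKM in wild type, most of the gap being Fut2, while the backbone bars change little in height and more in make-up.

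Backbone genes, which lay down the galactose and GlcNAc repeats, were the most abundant group and changed by less than 2-fold. Of 14 members 13 were tested, 3 rose and 3 fell, and their log2 fold changes spanned -0.82 to 0.72. The sums were 695 and 676 FPKM in knockout and 732 and 739 FPKM in wild type. B3gnt7 (227327), an enzyme of sulfated repeats, had 181 and 185 FPKM in knockout and 291 and 309 FPKM in wild type (-0.61 ± 0.08, adjusted p = 0.000264). B3galt5 (93961), which makes the type 1 chain that Lewis a and b structures are built on, had 157 and 141 FPKM in knockout and 97.98 and 95.4 FPKM in wild type (0.72 ± 0.08, adjusted p = 0.000167). B3gnt3 (72297), which extends core 1, had 199 and 187 FPKM in knockout and 148 and 146 FPKM in wild type (0.50 ± 0.08, adjusted p = 0.000868). The B3gnt3 call was lost on quantile normalized FPKM (0.21, adjusted p = 0.0658).

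Order among these 3 differed between the genotypes. In wild type B3gnt7 had the highest FPKM of the step in each library and B3galt5 the lowest of the 3. In knockout B3gnt3 was highest in each library, at 199 and 187 FPKM, with B3gnt7 at 181 and 185 FPKM. Their knockout means were 193 ± 8.46 and 183 ± 3.12 FPKM (SD, n = 2 libraries), and the difference between the 2 genes was not tested. B4galt4 (56375), which galactosylates sulfated GlcNAc, had 10.2 and 9.33 FPKM in knockout and 18.96 and 18.1 FPKM in wild type (-0.82 ± 0.13, adjusted p = 0.000898). B3gnt2, the main enzyme of N-acetyllactosamine repeats, fell by 0.45 (adjusted p = 0.00545). B4galt3 rose by 0.42 (adjusted p = 0.0119), but not without wild-type replicate 2 (0.37, adjusted p = 0.0912) or in DESeq2 (adjusted p = 0.0756). B4galt1, the principal galactosyltransferase of the Golgi, had a log2 fold change of -0.12 (adjusted p = 0.206) and was called lower when scaled to library totals (-0.23, adjusted p = 0.0353). Gcnt2, which branches the repeats into the I antigen, had 0.15 (adjusted p = 0.279). B4galt2, B3gnt4, B3gnt8, B3gnt9 and B3gntl1, at 0.39 to 5.83 FPKM, did not pass either (-0.67 to 0.05).

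The 3 genes that add GalNAc near the end of the chain went separate ways. B4galnt3 (330406), which makes LacdiNAc, had 13.8 and 13.1 FPKM in knockout and 37.7 and 38.3 FPKM in wild type (-1.40 ± 0.10, adjusted p = 7.62e-06). B4galnt4 (330671), a second LacdiNAc enzyme, had 2.49 and 3.05 FPKM in knockout and 1.14 and 0.86 FPKM in wild type (1.57 ± 0.31, adjusted p = 0.00317). B4galnt2 (14422), the Sd(a) antigen enzyme of the gut, had 59.9 and 61.5 FPKM in knockout and 61.7 and 59.7 FPKM in wild type. Its groups overlapped, with a log2 fold change of 0.10 ± 0.08 (adjusted p = 0.339) that changed sign in the FPKM fits. The summed level of the 2 LacdiNAc genes rests on B4galnt3, which was the more abundant in every library.

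Among the sialyltransferases not placed with the glycolipid genes, 11 of 13 were tested, 3 rose and 4 fell. The sums were 564 and 577 FPKM in knockout and 633 and 630 FPKM in wild type. St3gal3 (20441), which caps galactose on Lewis-type chains, had 5.49 and 6.80 FPKM in knockout and 21.5 and 23.7 FPKM in wild type. This was the largest fall of the step, -1.82 ± 0.15 (adjusted p = 2.4e-05). St3gal6 (54613), of the same reaction, had 33.5 and 31.2 FPKM in knockout and 56.7 and 47.1 FPKM in wild type (-0.58 ± 0.12, adjusted p = 0.00357). St3gal4 (20443), another enzyme of this reaction and the second most abundant of the step, had 181 and 182 FPKM in knockout and 159 and 160 FPKM in wild type (0.29 ± 0.07, adjusted p = 0.0116). That small rise lost its call when wild-type replicate 1 (0.27, adjusted p = 0.111) or 2 (0.30, adjusted p = 0.0705) was left out or when scaled to library totals (0.19, adjusted p = 0.0638), and it was gone on quantile normalized FPKM (adjusted p = 0.987).

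St6gal1 (20440), which caps N-glycans with sialic acid, had 9.20 and 10.1 FPKM in knockout and 19.3 and 19.8 FPKM in wild type (-0.93 ± 0.10, adjusted p = 0.000127). The enzymes that sialylate the GalNAc of mucin O-glycans moved apart. St6galnac1 (20445), which makes sialyl-Tn and is known from goblet cells, had 15.6 and 18.8 FPKM in knockout and 11.4 and 9.22 FPKM in wild type (0.84 ± 0.16, adjusted p = 0.00251). St6galnac2 fell by 0.74 (adjusted p = 0.00368), with 9.01 and 9.38 FPKM in knockout and 15.1 and 17.9 FPKM in wild type. St6galnac6 (50935), known for gangliosides and disialyl Lewis a rather than mucin GalNAc, was the most abundant member of all and made up 51.3% and 51.5% of the step's summed FPKM in knockout and 52.1% and 52.7% in wild type. Placing St6galnac6 here and not with the glycolipid genes weighs on the summed FPKM of both steps. The gene had 290 and 297 FPKM in knockout and 329 and 332 FPKM in wild type. Its log2 fold change of -0.07 ± 0.07 did not pass (adjusted p = 0.454), except on quantile normalized FPKM (-0.31, adjusted p = 0.0187). The groups did not overlap in FPKM, and the log2 fold change was -0.17 when scaled to library totals alone (adjusted p = 0.0808).

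The other sialyltransferases changed little or were low. St3gal1, which caps core 1, rose by 0.49 (adjusted p = 0.0402), but lost the call under 9 of the 14 alternatives, among them without knockout replicate 1 (adjusted p = 0.0818), knockout replicate 2 (adjusted p = 0.0666) and wild-type replicate 2 (0.34, adjusted p = 0.244). St6galnac4 (0.26, adjusted p = 0.0627, called in 1 alternative) and St8sia4 (-0.07, adjusted p = 0.883) did not pass. St3gal2 did not pass (-0.47, adjusted p = 0.173) except without knockout replicate 2 (-0.83, adjusted p = 0.0301). St8sia3 and St8sia6 had at most 10 counts in any library. The promoter of St6gal1 is shown as that of a named member that fell and held an AP-1 match. The match (TGANTCA, here TGAATCA) lies at -15 before the last of the gene's 3 starts. The windows before the other 2 held none of the 4 motifs:
St6gal1, chr16:23290220-23290469, plus strand: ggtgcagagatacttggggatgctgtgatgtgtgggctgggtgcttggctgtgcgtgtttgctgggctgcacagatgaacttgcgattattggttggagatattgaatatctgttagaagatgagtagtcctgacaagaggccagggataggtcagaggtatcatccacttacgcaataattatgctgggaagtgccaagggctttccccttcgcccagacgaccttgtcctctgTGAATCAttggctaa

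Motif matches among the members with a promoter were few. Of the 70 members, 50 had a promoter in the RefSeq table, and 1 held the STAT pattern, against 1.09% of 27025 genes. Promoters were found for only 11 of the 21 members called higher and for 14 of the 16 called lower. The NF-kappaB pattern was held by 1 of 50, against 1.65% of all, and the AP-1 pattern by 4 of 50 (Galnt15, Galnt16, Gcnt4 and St6gal1), against 7.82%. The AP-1 pattern leaves its middle base open. The matches of Gcnt4 and St6gal1 read TGAATCA, and those of Galnt15 and Galnt16 read TGACTCA. A CDX pattern (TTTATNG, either strand) was held by 3 of 50 (Fut8, Galnt11 and Galnt9), against 11.3%. Both strands of the 250 bases before each start were searched, and a gene counted if any of its starts had a match. A match is a description of letters and not a binding site.

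The members placed with glycolipid chains rose or did not pass. All 8 were tested, and 3 rose while 5 did not pass. Outside the symbol rule, Ugcg, A4galt and Gal3st1, also enzymes of glycolipids, were lower. They fell by 0.58, 0.72 and 0.95 on the log2 scale (adjusted p = 0.00214, 0.00633 and 0.000304, edgeR). B4galnt1 (14421), which makes the gangliosides GM2 and GD2, had 31.0 and 34.3 FPKM in knockout and 9.66 and 9.90 FPKM in wild type (1.84 ± 0.12, adjusted p = 5.54e-06). St8sia1 (20449), the GD3 synthase, had 64.2 and 67.3 counts in knockout and 9.7 and 17.6 in wild type, or 1.30 and 1.35 FPKM against 0.21 and 0.37 FPKM (2.24 ± 0.31, adjusted p = 0.000464). B4galt6 (56386), a lactosylceramide synthase, had 12.3 and 12.7 FPKM in knockout and 7.59 and 7.07 FPKM in wild type (0.87 ± 0.10, adjusted p = 0.000164). The second lactosylceramide synthase B4galt5 (56336) had 25.3 and 27.4 FPKM in knockout and 25.5 and 28.6 FPKM in wild type, overlapping groups with a log2 fold change of 0.06 ± 0.10 (adjusted p = 0.636). St3gal5, the GM3 synthase that lies between these steps, was low, at 1.19 and 1.48 FPKM in knockout and 1.31 and 1.08 FPKM in wild type (0.21, adjusted p = 0.689). B3gnt5 of the lacto series (0.18, adjusted p = 0.33), B3galt4, the GM1 synthase (-0.22, adjusted p = 0.559), and St8sia5 (-0.01, adjusted p = 0.985) did not pass.

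Neither linker enzyme of proteoglycans passed. B3galt6 (117592) had 1.66 and 1.53 FPKM in knockout and 1.84 and 1.65 FPKM in wild type (-0.03 ± 0.28, adjusted p = 0.946). B4galt7 (218271) had 71 and 171 counts in knockout and 67 and 221 in wild type (-0.22 ± 0.49, adjusted p = 0.746). It was the 1 member whose transcript list differed between replicate numbers, and its counts followed that number in both groups, so its fold change is uncertain. Left-out libraries moved it between -0.97 without knockout replicate 2 and 0.84 without wild-type replicate 2.

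Substrates, sugar donors and other genes of glycan synthesis and turnover were examined as a list of 87 symbols, some of them older names of a listed gene. Of these, 71 were tested, 20 rose and 18 fell (median log2 fold change 0.12). Over all genes tested, 23.0% were called higher and 20.8% lower. Of 6 tested mucin and mucus genes 5 rose. Muc2, the gel-forming mucin, had 534 and 552 FPKM in knockout and 384 and 420 FPKM in wild type (0.54 ± 0.06, adjusted p = 0.000179). Muc13, a membrane mucin, had 1280 and 1275 FPKM in knockout and 1016 and 967 FPKM in wild type (0.47 ± 0.06, adjusted p = 0.000202). Muc4 and Muc1, also membrane mucins, rose by 1.88 and 1.81 on the log2 scale (adjusted p = 3.35e-06 and 1.61e-05). Of 23 tested genes of sugar nucleotides 8 rose and 4 fell. Gmds, the entry enzyme of GDP-fucose synthesis, had 305 and 295 FPKM in knockout and 150 and 139 FPKM in wild type (1.15 ± 0.08, adjusted p = 8.69e-06). Gne, the entry enzyme of sialic acid synthesis, had 105 and 108 FPKM in knockout and 182 and 200 FPKM in wild type (-0.78 ± 0.08, adjusted p = 8.95e-05).

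Of 13 tested sulfation genes 6 fell, 1 rose and 6 did not pass (median -0.38), and the sums were 275 and 261 FPKM in knockout and 528 and 491 FPKM in wild type. Slc26a2, a sulfate transporter, had 50.1 and 52.7 FPKM in knockout and 224 and 215 FPKM in wild type (-1.99 ± 0.08, adjusted p = 3.69e-07) and makes up most of that difference. Gal3st1 and Gal3st2c, which sulfate galactose, fell by 0.95 and 2.58 on the log2 scale (adjusted p = 0.000304 and 0.000134). Gal3st2c has close copies Gal3st2 and Gal3st2b, so reads could be split among them. Of 18 other transferases of the same glycans 4 rose and 5 fell. Mgat4c had 110 and 85.9 FPKM in knockout and 13.6 and 11.4 FPKM in wild type (3.07 ± 0.14, adjusted p = 9.14e-07). Its relative Mgat4a, an N-glycan branching enzyme, had 58.9 and 57.0 FPKM in knockout and 150 and 132 FPKM in wild type (-1.18 ± 0.09, adjusted p = 1.14e-05). Mgat3, which adds the bisecting GlcNAc of N-glycans, fell by 0.64 (adjusted p = 0.000746). Of 11 tested glycosidases 2 rose and 3 fell. These counts and those of the other transferases lay near the shares over all genes tested. Man2b1, the lysosomal mannosidase, and Hexa, a subunit of lysosomal hexosaminidase, fell by 0.59 and 0.33 (adjusted p = 0.00109 and 0.0174).

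**Figure D4:**
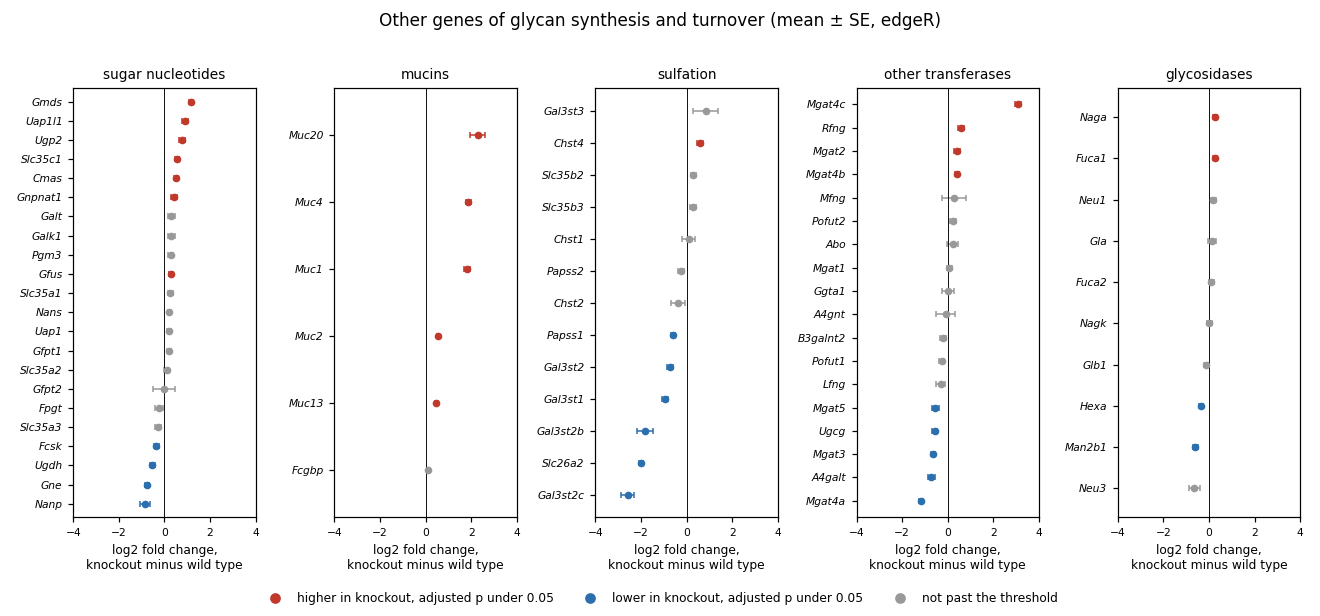
Log2 fold change (knockout minus wild type, x axis) with standard error of 69 of the 71 tested pathway genes outside the family, in 5 groups and coloured by call. The 5 called mucin genes lie right of 0, the 6 sulfation genes called lower left of it, and Mgat4c (3.07) and Gal3st2c (-2.58) are the extremes of those drawn.

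Read assignment limits a few values. Exons of 9 members overlap those of another listed gene in the mouse annotation (GENCODE M21), and the sources used here do not say whether counting used strand. Among the named ones, B4galnt1 overlaps Slc26a10, which had 6 and 5 counts in knockout and 1 and 1 in wild type, St3gal6 with Dcbld2 (138 and 140 counts in knockout, 132 and 141 in wild type), and St3gal4 and St8sia1 with genes of at most 36 counts. Of the 70 members, 53 had whole counts in all libraries.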

How the data were processed

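For each library the authors deposited Entrez gene IDs, RefSeq transcripts, a length (not used in a test), expected counts and FPKM, per the file headers. Of the deposited expected (estimated) counts 78.8% to 80.2% were whole. The deposited FPKM divide fragments by transcript length and library total. The submitters' processing notes name Bowtie2, BWA and the human build hg19, with no role. The samples are mouse, so no coordinates of the files are used. The quantification tool was not given in the sources used here. Per the labels' protocols, Trizol RNA and an Illumina TruSeq kit were used. Symbols came from the RefSeq gene table (GRCm38.p6), which matched 99.72% of 18872 gene IDs, and promoters from RefSeq, GRCm38.p6.

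A gene missing from a file was set to 0 there. Rounded expected counts of 2 knockout and 2 wild-type libraries were compared by glmQLFit and glmQLFTest of edgeR 4.0.16 (R 4.3.3, two-sided) after filterByExpr and TMM scaling. The standard error is the log2 fold change over the square root of F. The biological coefficient of variation was 12.9%. Libraries of a group differed beyond sampling noise (chi-square per degree of freedom 2.95 in knockout and 2.18 in wild type, 38.2 to 44.6 between groups) and were kept separate. On simulated counts the fit was checked to recover known changes.

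Alternatives were other scalings and filters, DESeq2 1.42.0, limma 3.58.1 on log2(FPKM + 1) and log2(FPKM + 0.1), only genes whose transcripts matched in all files, a replicate block and leaving out each library. The members, enzyme steps and lists were chosen with earlier results of these data known. Full values are given for, in each step, up to 4 called members by p, the 2 most abundant, and 12 genes set by name; for the other pathway genes, up to 3 of each group by p, with Muc2 and Muc13. St6galnac2, Galnt6, St3gal5 and the low-count genes were given more values after these were seen, and Ugcg and A4galt were added then. Promoters were printed for Gcnt4, Fut4 and St6gal1 after the search was seen. A few single-gene results are not reported here.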

Additional observations from a re-analysis of the deposited data

How the results depend on the processing

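Counts of called members stayed within 1.5 times the reported 21 higher and 16 lower under all 14 alternatives (15 to 23 higher, 13 to 19 lower). Over all genes the reported 3126 higher and 2824 lower also did. Leaving out a library gave 15 to 19 members higher and 13 to 16 lower, 2442 to 3053 genes higher and 2133 to 2711 lower, and 15 to 24 other pathway genes higher and 16 to 18 lower, against 20 and 18. With quantile normalized FPKM 13 other pathway genes were higher, and St3gal4 turned to -0.00162 on the log2 scale (adjusted p = 0.987); the cause was not tested. Of the 37 called members, 26 kept the call throughout, and 6 uncalled members were called under some alternative, neither of which was counted over all genes. The replicate numbers are shared by the groups, but the labels do not say what they mark. Differences between replicates 1 and 2 correlated between genotypes (r = 0.299 across genes, which are not independent), and the replicate 1 and 2 files use different transcript lists for some genes. With the replicate block, 23 members were higher and 17 lower (Galnt5, St6galnac4 and Galnt4 were added, adjusted p = 0.0281, 0.0266 and 0.00149), 30 other pathway genes higher and 22 lower, and 3855 and 3548 genes in all. At this depth, members under 1 FPKM rest on few reads.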
